A study of Mus musculus with 9 samples.

Results

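Interferon regulatory factors (IRFs) and signal transducers and activators of transcription (STATs) are the transcription factors through which interferons and many cytokines change gene expression. Type I interferon binds its receptor, the attached Janus kinases phosphorylate STAT proteins, and Stat2 together with a partner STAT and the DNA-binding protein Irf9 forms the complex ISGF3, which binds interferon-stimulated response elements. In macrophages Irf3, Irf5 and Irf7 act upstream of interferon production downstream of nucleic acid sensors and Toll-like receptors, and Irf7 is itself an interferon-induced gene. Stat3 and Stat6 carry the signals of the IL-6 and IL-10 family cytokines and of IL-4 and IL-13.

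The 9 genes described here, Irf1, Irf2, Irf3, Irf5, Irf7, Irf9, Stat2, Stat3 and Stat6, were taken by name from 23420 genes in the authors' normalised table, and all 9 were among the 9564 genes with at least 10 normalised reads in at least 3 libraries. RNA-seq was made from RAW264 cells, an established murine line of macrophage character whose cells become osteoclasts under RANKL. The Control group was the line with no mutation. The KO #1 group was a clone with a CRISPR/Cas9 mutation in exon 2 of the zinc finger gene Zscan10, and the KO #2 group was a clone mutated in exon 5 of the same gene. Per the labels cells were electroporated with a Guide-it ZsGreen1 plasmid that encodes Cas9 and the guide RNA, clones were obtained by sorting single cells, and no group received RANKL. Each mutation was therefore seen in 1 clone, so the mutation and the clone cannot be told apart, and the number in the submitters' raw file names (ZR-5 for KO #1, ZR-2 for KO #2) is opposite to the exon in the labels. Zscan10 had 0 reads in all 9 libraries, so its reads are no check of the labels.

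There were 3 libraries per group with 1821703 to 2458539 reads each, and 1 read was worth 0.872 to 1.18 normalised reads. The labels do not state whether replicate libraries are separate cultures of cells, and the p-values below therefore describe library-to-library spread, which may be technical. Libraries of the same group differed by a chi-square of 1.05 to 1.29 per degree of freedom, little above counting error alone. All 8 macrophage markers except Mertk, which had 7 reads in 5 of the 9 libraries, had reads in every library. All 4 epithelial markers were at 0, as were 3 of 4 B cell, 3 of 5 T cell, 3 of 5 fibroblast and 4 of 5 neutrophil markers. The T cell marker Lck had 64 reads, with reads in all 9 libraries. The summed level of 8 macrophage markers was 27569 to 28587 normalised reads in Control, 40306 to 41389 in KO #1 and 36315 to 37846 in KO #2. Most of that difference was in Lyz2, whose mean was 17632, 30181 and 27720 in the 3 groups. Cd68 had 1449, 1740 and 1435, Cd14 had 1657, 1952 and 1302, and Fcgr1 had 272, 414 and 156. Lower in both clones were Csf1r with 6013, 5870 and 5713, Itgam with 409, 259 and 298, and Ptprc with 572, 528 and 441. The median level over the 8 markers was 1011, 1134 and 871, and the part of these differences in the results below was not tested.

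The promoter windows of 4 members are given first because the response elements bound by these factors stand in some of them. Each window runs from 250 bases before to 50 bases after the gene's start in RefSeq (build GRCm38.p6), 5′ to 3′ on the gene's own strand. Capitals mark the core of the interferon-stimulated response element, which is GAAA, any 2 bases and GAAA again, or TTCNNNGAA, the gamma-activated sequence that STAT dimers bind, both searched on both strands.
Irf1, chr11:53769764-53770063, plus strand: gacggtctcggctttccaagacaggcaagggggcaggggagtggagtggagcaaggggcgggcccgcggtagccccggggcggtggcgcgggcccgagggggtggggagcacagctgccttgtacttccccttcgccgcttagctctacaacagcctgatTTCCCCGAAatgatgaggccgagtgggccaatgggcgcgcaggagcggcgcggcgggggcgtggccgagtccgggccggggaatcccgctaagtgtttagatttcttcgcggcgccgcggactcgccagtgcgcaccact
Irf2, chr8:46739495-46739794, plus strand: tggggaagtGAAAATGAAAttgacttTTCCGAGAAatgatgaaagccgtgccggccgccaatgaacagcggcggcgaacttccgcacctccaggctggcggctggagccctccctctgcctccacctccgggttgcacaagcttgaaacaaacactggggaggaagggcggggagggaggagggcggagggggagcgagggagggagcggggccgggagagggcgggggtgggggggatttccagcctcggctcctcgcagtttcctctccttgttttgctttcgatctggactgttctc
Stat2, chr10:128270248-128270547, plus strand: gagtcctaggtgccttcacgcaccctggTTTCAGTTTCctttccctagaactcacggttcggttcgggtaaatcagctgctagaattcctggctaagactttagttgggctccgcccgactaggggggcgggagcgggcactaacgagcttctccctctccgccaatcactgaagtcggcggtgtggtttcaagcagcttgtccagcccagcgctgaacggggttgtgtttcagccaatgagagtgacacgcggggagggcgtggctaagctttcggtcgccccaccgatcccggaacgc
Irf7, chr7:141266375-141266674, minus strand: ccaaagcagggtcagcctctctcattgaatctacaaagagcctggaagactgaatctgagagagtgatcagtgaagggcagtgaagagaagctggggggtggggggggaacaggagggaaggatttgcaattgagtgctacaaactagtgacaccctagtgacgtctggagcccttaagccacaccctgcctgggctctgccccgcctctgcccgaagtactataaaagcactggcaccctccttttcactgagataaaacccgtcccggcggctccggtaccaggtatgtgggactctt

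The Irf2 window held the response element core at position -241 from the start site and TTCNNNGAA at -224. The Stat2 window held the same core at -222 on the opposite strand, where the printed strand reads TTTCAGTTTC. In Irf1, a TTCNNNGAA match stood at -90, and the Irf7 window held neither motif. All 9 members had at least 1 window in the RefSeq table, and each motif was found in 2 of the 9. Counted the same way over the 27025 genes in the table, 3.99% had a window with the response element core and 9.55% one with TTCNNNGAA (3.44% and 8.30% of the 32851 windows). A match describes letters in the window and not a bound site, and no match says nothing of binding outside these letters.

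The levels of the 9 genes were compared with each other per length, as normalised reads per kilobase of exon. In Control libraries Irf5 was highest at 197, followed by Stat6 at 120 and Irf2 at 49.3. Irf3 and Stat3 came next at 30.9 and 30.6, with libraries that overlapped, and then Irf9 at 25.1, Irf7 at 19.2, Stat2 at 12.5 and Irf1 at 8.96. Irf7 moved from the 7th place in Control to the 2nd in KO #1, at 173, and to the 9th in KO #2, at 6.39. In KO #1 the libraries of Irf9 and Irf2 overlapped, as did those of Stat2 and Irf3. In KO #2 the overlapping neighbours were Irf2 and Irf3, Irf9 and Stat2, and Stat2 and Irf1.

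**Figure D1:**
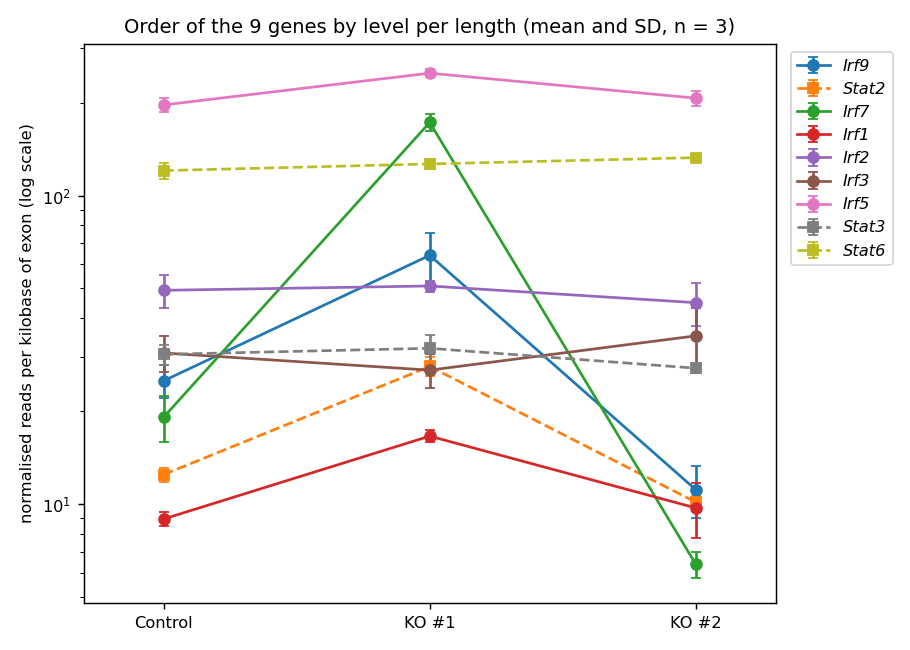
Mean level per length of each of the 9 genes in the 3 groups (normalised reads per kilobase of exon, log axis; points are means and bars SD, n = 3 libraries; solid lines are Irf genes and dashed lines Stat genes). Irf7 crosses most of the other genes between groups, from 19.2 in Control to 173 in KO #1 and 6.39 in KO #2, while Irf5 stays highest in each group.

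As a share of the summed level per length of the 6 IRF genes, Irf7 made up 5.82% ± 1.12 (SD, n = 3) in Control, 29.7% ± 1.68 in KO #1 and 2.03% ± 0.13 in KO #2. Irf5, the main IRF transcript of these cells by this measure, made up 59.6% ± 0.733, 42.9% ± 0.608 and 65.8% ± 1.65. The summed level of the 6 genes was 330 ± 17.0 in Control, 581 ± 14.7 in KO #1 and 314 ± 10.9 in KO #2. Among the 3 STAT genes, Stat2 made up 7.65% ± 0.725, 15.0% ± 1.20 and 5.96% ± 0.215. These shares were not tested.

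Each difference between groups was tested by limma on log2 of the normalised reads plus 1 over all 9564 genes, with Benjamini-Hochberg adjusted p under 0.05 as the call. Folds given below are ratios of the group means of normalised reads, while log2 differences are limma's on values plus 1. A fold and its log2 difference therefore do not match exactly. The comparison of each clone with Control asks what differs in the mutant lines, and both comparisons share the Control libraries. In KO #1, 5 of the 9 genes rose (Irf7, Irf9, Stat2, Irf1 and Irf5) and the other 4 were not called, where 10.5% of all tested genes were called higher and 10.2% lower (20.8% in either direction). In KO #2, 2 of the 9 fell (Irf7 and Irf9) and 7 were not called, where 11.8% of all genes were called lower and 10.7% higher (22.5% in either direction). Directly between the clones, the same 5 genes as in KO #1 against Control were higher in KO #1 and 4 were not called, against 13.5% of all genes called higher and 12.9% lower (26.5% in either direction). The libraries of the groups compared did not overlap for 5, 4 and 7 of the 9 genes in these comparisons, beside 32.9%, 34.5% and 37.4% of all tested genes. The median log2 difference of the 9 was 0.34, -0.14 and 0.27 in these comparisons, beside -0.0066, -0.0087 and -0.0028 for all tested genes. In bulk RNA a change in every cell and a change in fewer cells cannot be told apart.

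**Figure D2:**
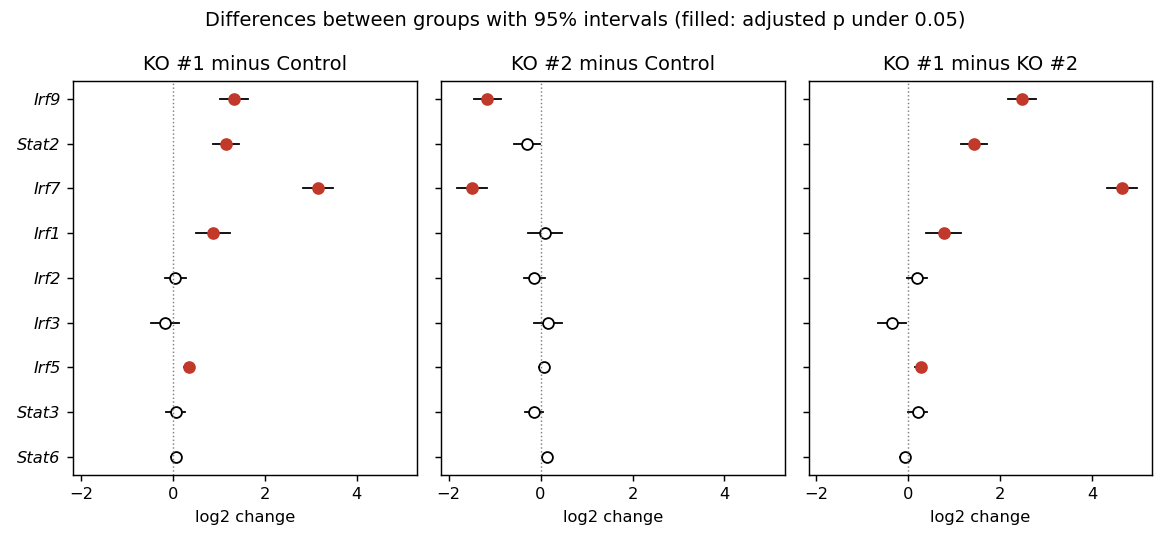
Log2 difference of each gene between groups from limma, with 95% intervals, for KO #1 minus Control, KO #2 minus Control and KO #1 minus KO #2 (filled points: adjusted p under 0.05). Irf7 reaches 3.15, -1.50 and 4.64 in the 3 panels, and Irf2, Irf3, Stat3 and Stat6 have open points in all of them.

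Irf7, the interferon-induced factor that amplifies type I interferon transcription, had the largest log2 difference of the 9 in each comparison. It had 28.8, 40.3 and 37.8 normalised reads in the Control libraries, 299, 327 and 336 in KO #1, and 12.3, 12.8 and 10.6 in KO #2. All KO #1 libraries lay above and all KO #2 libraries below every Control library. These values rested on 110 reads in Control, 949 in KO #1 and 35 in KO #2. Irf7 was 9.01-fold higher in KO #1 than in Control (log2 difference 3.15 ± 0.16 SE, adjusted p = 1.094e-23) and 3.00-fold lower in KO #2 (log2 -1.50 ± 0.16, adjusted p = 4.229e-11). Between the clones the difference was 27.0-fold, with a log2 difference of 4.64 ± 0.16 and an adjusted p of 6.072e-32. The ratio of Irf7 to Irf3 per length, a pair of closely related factors, was 0.627 ± 0.145 in Control, 6.45 ± 1.18 in KO #1 and 0.187 ± 0.0345 in KO #2.

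Irf9, the DNA-binding subunit of ISGF3, also moved in both clones. Its levels were 75.0, 68.7 and 58.7 normalised reads in Control, 189, 192 and 136 in KO #1, and 35.9, 24.5 and 29.5 in KO #2, so that no groups overlapped. KO #1 was 2.55-fold higher than Control (log2 1.33 ± 0.15, adjusted p = 1.492e-10), with replicate 3 below the other KO #1 libraries. KO #2 was 2.25-fold lower than Control (log2 -1.15 ± 0.15, adjusted p = 6.874e-09), and KO #1 was 5.74-fold higher than KO #2 (log2 2.48 ± 0.15, adjusted p = 5.281e-21).

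Stat2, which brings the transactivation domain to the same complex, rose in KO #1. It had 54.1, 57.9 and 52.5 normalised reads in Control, 128, 128 and 113 in KO #1, and 45.3, 46.1 and 42.5 in KO #2. The KO #1 libraries lay far above the rest, and the KO #2 libraries lay just below Control without overlap. The rise in KO #1 was 2.24-fold (log2 1.15 ± 0.14, adjusted p = 1.326e-09). The difference between KO #2 and Control was not called, with a log2 difference of -0.29, a 95% interval of -0.57 to -0.01 and an adjusted p of 0.1383. Stat2 was 2.75-fold higher in KO #1 than in KO #2 (log2 1.44 ± 0.14, adjusted p = 6.662e-13). The Irf9 to Stat2 ratio per length was 2.01 ± 0.227 in Control, 2.28 ± 0.266 in KO #1 and 1.10 ± 0.215 in KO #2.

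**Figure D3:**
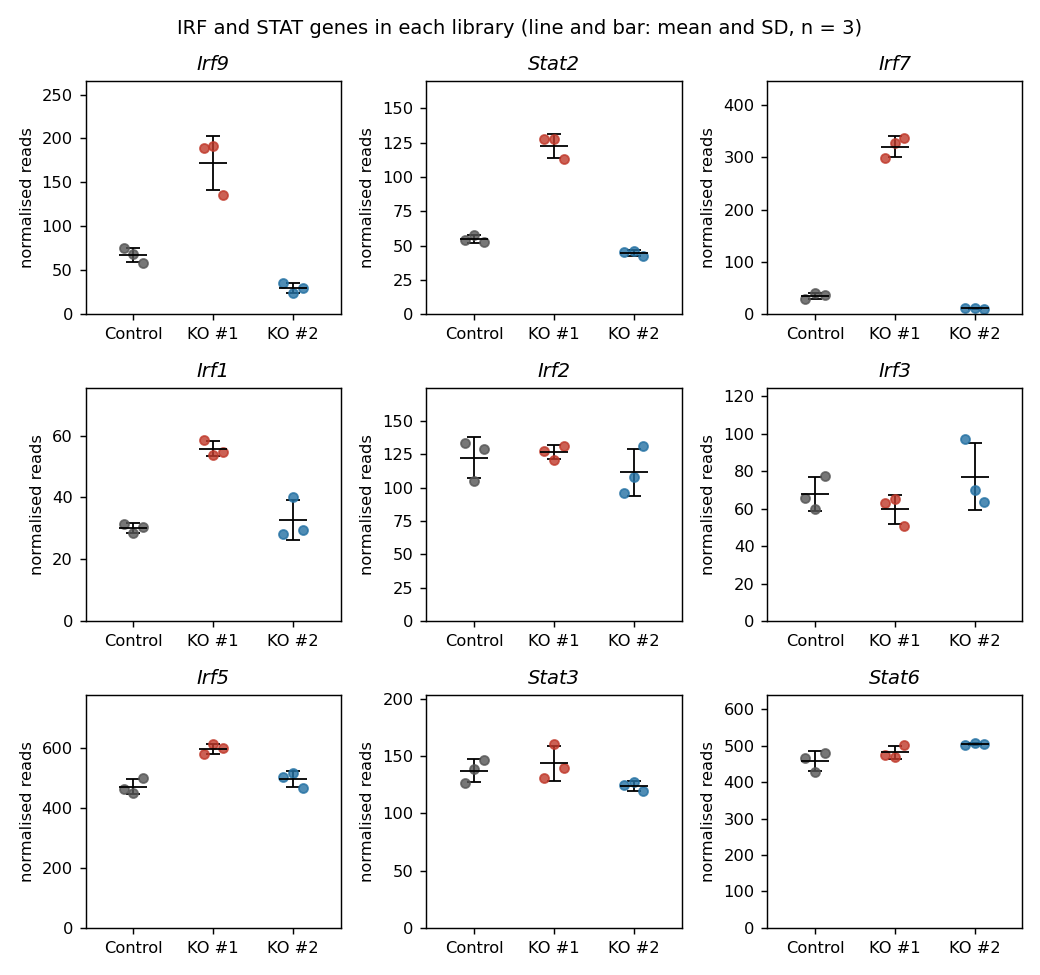
Normalised reads of each gene in each of the 9 libraries (points), with the mean and SD of each group (line and bar, n = 3; axes start at 0). The KO #1 points of Irf7, Irf9, Stat2, Irf1 and Irf5 lie above all Control points, and only Irf7 and Irf9 have a called fall in KO #2.

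Irf1, an activator induced by interferon-gamma, and Irf2, which binds the same elements and often represses, differed in pattern. Irf1 had 31.4, 28.5 and 30.4 normalised reads in Control, 58.8, 53.9 and 54.9 in KO #1, and 28.3, 40.3 and 29.5 in KO #2. Its KO #1 libraries lay above all others, and Control and KO #2 overlapped. The rise in KO #1 was 1.86-fold against Control (log2 0.87 ± 0.19, adjusted p = 0.0002717) and 1.71-fold against KO #2 (log2 0.77 ± 0.19, adjusted p = 0.001017). KO #2 against Control was not called, with a 95% interval of the log2 difference from -0.28 to 0.48.

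Irf2 overlapped between all groups, at 133, 105 and 129 normalised reads in Control, 128, 121 and 131 in KO #1, and 96.2, 108 and 131 in KO #2. No comparison of it was called. The 95% interval of its log2 difference ran from -0.17 to 0.28 in KO #1 and from -0.36 to 0.09 in KO #2. The Irf1 to Irf2 ratio per length was 0.183 ± 0.0152 in Control, 0.326 ± 0.0155 in KO #1 and 0.220 ± 0.0546 in KO #2.

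Irf5, which acts downstream of Toll-like receptors in the induction of inflammatory cytokines, had 464, 449 and 498 normalised reads in Control, 578, 612 and 599 in KO #1, and 503, 516 and 465 in KO #2. The KO #1 libraries lay above all others and the other groups overlapped. Irf5 was 1.27-fold higher in KO #1 than in Control (log2 0.34 ± 0.06, adjusted p = 1.495e-06) and 1.21-fold higher than in KO #2 (log2 0.27 ± 0.06, adjusted p = 9.019e-05). This was the smallest of the 5 rises, on the largest read number.

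Irf3, the latent factor that is activated by phosphorylation, had 65.4, 59.9 and 77.6 normalised reads in Control, 62.9, 64.9 and 50.8 in KO #1, and 97.2, 69.7 and 63.7 in KO #2. All groups overlapped and no comparison was called, with 95% intervals of -0.49 to 0.12 in KO #1 and -0.14 to 0.47 in KO #2 against Control. KO #1 minus KO #2 was -0.35 with an adjusted p of 0.08604, and edgeR's quasi-likelihood test on the recovered reads gave -0.39 with an adjusted p of 0.0392.

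Stat3, the factor of IL-6 and IL-10 signalling, had 126, 138 and 147 normalised reads in Control, 131, 161 and 139 in KO #1, and 125, 128 and 119 in KO #2. Both clones overlapped Control and neither comparison was called (95% intervals -0.14 to 0.26 and -0.35 to 0.06). The libraries of the clones lay apart, but their log2 difference of 0.21 had an adjusted p of 0.1256.

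Stat6, the factor of IL-4 and IL-13 signalling, had 467, 428 and 480 normalised reads in Control, 475, 469 and 501 in KO #1, and 501, 508 and 506 in KO #2. The KO #2 libraries lay just above all Control libraries. That difference was 1.10-fold (log2 0.14, 95% interval 0.03 to 0.25) with an adjusted p of 0.0618, and edgeR's quasi-likelihood test called it at 0.04785. KO #1 against Control was not called, with an interval of -0.04 to 0.18. Stat6 shares 70 exon bases, 1.84% of its exon length, with Nab2 on the opposite strand.

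Beside the 9, 7 further IRF and STAT genes were listed and 5 of them were tested. Of these 1 rose and 1 fell in KO #1 and 3 fell in KO #2, beside 20.8% and 22.5% of all tested genes called. The filter on low values was passed through the Control libraries alone by 1 of the 5, and the filter favours its fall in the clones. Of the other 4, 1 rose and 0 fell in KO #1, and 2 fell in KO #2. In the mm10 gene models the members lie on 6 chromosomes. Irf7 spans chr7:141263183-141266424 on the minus strand with 1859 exon bases, Irf9 spans chr14:55603985-55610030 and Stat2 spans chr10:128270576-128292849. The median log2 difference of all tested genes on these chromosomes was between -0.022 and 0.016 in either clone against Control.

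Upstream of the STATs, 12 of 14 receptor chains were tested. In KO #1 the 4 called chains (Ifnar2, Csf2rb, Ifnar1 and Ifngr2) all fell. Of all tested genes 20.8% were called in KO #1, made up of 10.2% called lower and 10.5% called higher. Ifnar2, the high-affinity chain of the type I interferon receptor, had 227 ± 13.3 normalised reads in Control (SD, n = 3), 87.2 ± 13.8 in KO #1 (adjusted p = 1.864e-18) and 227 ± 6.39 in KO #2. Ifnar1, its partner chain, had 151 ± 8.50, 107 ± 14.2 and 202 ± 11.6, a called fall in KO #1 and a called rise in KO #2. Ifngr2, a chain of the interferon-gamma receptor, likewise had 163 ± 2.88, 118 ± 11.3 and 250 ± 21.1. Csf2rb, the shared beta chain of the GM-CSF receptor family, had 107 ± 6.42, 71.8 ± 11.9 and 88.4 ± 11.2, and KO #2 was not called. Both Ifnar genes and Ifngr2 lie on chromosome 16 beyond 70 Mb. Of the 62 genes tested there, 48 were called lower and 5 higher in KO #1, with a median log2 difference of -0.80. In KO #2, 9 were called lower and 11 higher, with a median of -0.02. The part of that regional difference in the receptor genes' values was not tested.

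In KO #2, 3 receptor chains rose and 4 fell, beside 10.7% of all tested genes called higher and 11.8% lower. The 3 that rose were Ifnar1, Ifngr2 and Il10rb, all on chromosome 16. Il10rb, the partner of Il10ra, rose from 75.9 ± 6.25 to 113 ± 6.33 normalised reads (adjusted p = 0.0006582). Il10ra, the ligand-binding chain of the IL-10 receptor, fell from 95.8 ± 5.46 to 53.2 ± 1.41 normalised reads, and Il4ra, the chain that recruits Stat6, fell from 27.7 ± 8.56 to 9.80 ± 3.19 (adjusted p = 8.477e-05). Il2rg, the common cytokine receptor gamma chain, fell from 177 ± 11.5 to 109 ± 6.37 (adjusted p = 2.153e-08). None of the 4 Janus kinases was called by limma in any comparison. At an unadjusted p under 0.05 there was 1 in KO #1, 0 in KO #2 and 1 between the clones, and DESeq2 and edgeR called 0.

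Of the 17 adaptors and kinases that activate Irf3, Irf5 and Irf7, 4 rose and 4 fell in KO #1 and 3 fell in KO #2. The share of all tested genes called was 20.8% in KO #1 and 22.5% in KO #2. Tmem173, which encodes the DNA-sensing adaptor STING, fell in both clones, from 112 ± 11.3 normalised reads in Control to 35.4 ± 10.2 in KO #1 (adjusted p = 1.509e-12) and 50.1 ± 4.98 in KO #2 (adjusted p = 7.383e-08). Traf3, an adaptor of interferon induction, fell in KO #1 from 254 ± 7.64 to 186 ± 7.51 (adjusted p = 4.106e-06), as did Slc15a4, a lysosomal transporter (117 ± 4.39 to 84.8 ± 12.4), and Ticam2, a Toll-like receptor adaptor (75.4 ± 12.6 to 54.5 ± 7.54). Tbk1, a kinase of Irf3 and Irf7, was 1.26-fold higher in KO #1 (adjusted p = 0.004069) and had 161 ± 8.76 in KO #2 beside 160 ± 11.8 in Control. Ikbke, the related kinase, fell from 95.7 ± 6.77 to 52.7 ± 11.2 in KO #2 (adjusted p = 2.424e-06), and Ticam1, the adaptor TRIF, fell from 67.4 ± 7.12 to 46.0 ± 4.34 (adjusted p = 0.006676).

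Among 21 tested inhibitors and cofactors, 4 rose and 1 fell in KO #1, and 1 rose and 5 fell in KO #2. These counts stand beside 20.8% of all tested genes called in KO #1 and 22.5% in KO #2. Trim30a had the largest change of the list in KO #1, with 44.5 ± 7.18 normalised reads in Control, 365 ± 1.58 in KO #1 and 20.4 ± 3.81 in KO #2, both called. It belongs to a cluster of near copies among which the counting could split reads, so its values are uncertain. Usp18, an interferon-induced protein that blocks signalling at Ifnar2, had 51.6 ± 4.68 normalised reads in Control, 354 ± 11.0 in KO #1 (adjusted p = 9.517e-18) and 5.86 ± 3.00 in KO #2 (adjusted p = 1.116e-19). Nmi, a protein that binds STATs, had 40.9 ± 7.88, 63.8 ± 9.33 and 21.6 ± 3.53, and Trim21, which modifies IRF proteins with ubiquitin, rose in KO #1 from 14.5 ± 2.83 to 46.7 ± 3.29 and had 17.0 ± 5.95 in KO #2. The difference of Trim21 between the clones was called (log2 1.46, adjusted p = 3.311e-06). Socs3, the inhibitor induced by Stat3, fell in KO #1 from 18.4 ± 2.29 to 8.83 ± 3.99 (adjusted p = 0.00524) and had 19.7 ± 1.73 in KO #2. Ptpn1, a phosphatase that acts on Janus kinases, rose in KO #2 from 162 ± 3.34 to 195 ± 17.6 (adjusted p = 0.02737).

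Downstream, the 31 tested ISGF3 targets all rose in KO #1, with a median log2 difference of 2.16, and 25 of them fell in KO #2, with a median of -1.03. Among all tested genes 10.5% were called higher in KO #1 and 11.8% lower in KO #2. The filter on low values was passed only with the KO #1 libraries by 9 of the 31, among them Ifit1, Mx1, Ddx60, Mx2 and Isg15, and the filter fixes or favours their direction. Of the other 22, all rose in KO #1, with a median of 1.72, and 18 fell in KO #2, with a median of -0.86. Ifi44 had 134 ± 7.02 normalised reads in Control, 975 ± 18.3 in KO #1 and 20.2 ± 4.63 in KO #2, and Ddx58, which encodes the RNA sensor RIG-I, had 76.1 ± 3.84, 395 ± 21.7 and 19.4 ± 7.01. Rtp4, which had the largest fall in KO #2, had 30.8 ± 1.14, 221 ± 4.12 and 2.83 ± 2.50, the last on 8 reads. Among the 9 that rest on KO #1, Isg15, a ubiquitin-like modifier, had 9.98 ± 6.85, 102 ± 14.8 and 1.43 ± 0.807, and the KO #1 levels of Ifit1, Mx1, Ddx60 and Mx2 were 56.9 ± 4.55, 30.1 ± 1.61, 39.2 ± 5.00 and 48.4 ± 10.6 beside 1.82 to 3.75 in Control.

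Of 19 listed targets of Irf1 and of the gamma-activated sequence, 10 were tested. Of these 8 rose in KO #1 and all 10 fell in KO #2, beside 10.5% and 11.8% of all tested genes. Irgm1, an immunity-related GTPase, had 65.2 ± 1.55 normalised reads in Control, 330.1 ± 22.1 in KO #1 and 37.9 ± 5.21 in KO #2, and Igtp, of the same family, had 20.6 ± 4.09, 86.0 ± 11.1 and 9.10 ± 1.88. Tap1, the peptide transporter of antigen presentation, had 53.3 ± 1.13, 127 ± 3.65 and 27.6 ± 6.89. Nlrc5, an activator of MHC class I genes, had 37.6 ± 4.51, 96.4 ± 11.8 and 23.2 ± 8.22, and Psmb9, an immunoproteasome subunit, had 35.3 ± 7.16, 54.4 ± 5.62 and 20.0 ± 3.46. These targets fell in KO #2 while Irf1 itself was not called there. Both target lists were chosen with results of these data known, so their direction is a description.

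Of 15 tested Stat3 targets, 4 rose and 3 fell in KO #1, and 5 rose and 4 fell in KO #2. The shares of all tested genes called were 20.8% and 22.5%. Set aside were 2 Stat3 targets that did not pass the filter on low values once the libraries of 1 group were left out. Of the other 13, 3 rose and 2 fell in KO #1 and 4 rose and 3 fell in KO #2. Fos, an immediate early gene, had 66.3 ± 7.28 normalised reads in Control, 128 ± 15.7 in KO #1 and 227 ± 12.8 in KO #2, and Batf had 15.7 ± 5.25 in Control on 49 reads, 0 reads in KO #1 and 2 reads in KO #2. Batf passed the filter through the Control libraries alone and had to be lower in the clones. Only 4 of 17 Stat6 targets were tested. Of these 1 rose and 1 fell in KO #1, and 2 rose and 1 fell in KO #2, beside the same shares of 20.8% and 22.5%. DESeq2 called 1 of the 4 in KO #1 and 2 in KO #2, and edgeR called 3 in each. Flt1, a receptor for vascular endothelial growth factor, rose in both clones, from 18.0 ± 5.02 to 66.4 ± 8.16 in KO #1 and 82.0 ± 8.27 in KO #2. Egr2 fell in KO #1 from 22.4 ± 5.19 to 12.2 ± 2.57 (adjusted p = 0.02404), and Klf4 rose in KO #2 from 10.6 ± 2.72 to 18.9 ± 1.67 (adjusted p = 0.03212). Il4ra, also on this list, fell in KO #2 from 27.7 ± 8.56 to 9.80 ± 3.19 (adjusted p = 8.477e-05). Of 8 Irf5 targets 2 were tested, Ccl4 and Tnf. Ccl4 had 83.4 ± 8.50, 76.8 ± 3.91 and 33.5 ± 4.72 and Tnf had 247 ± 9.68, 247 ± 18.4 and 182 ± 3.73, both a called fall in KO #2 and neither called in KO #1, where Irf5 rose. In KO #1 limma, DESeq2 and edgeR called 0 of these 2, and 0 had an unadjusted p under 0.05.

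**Figure D4:**
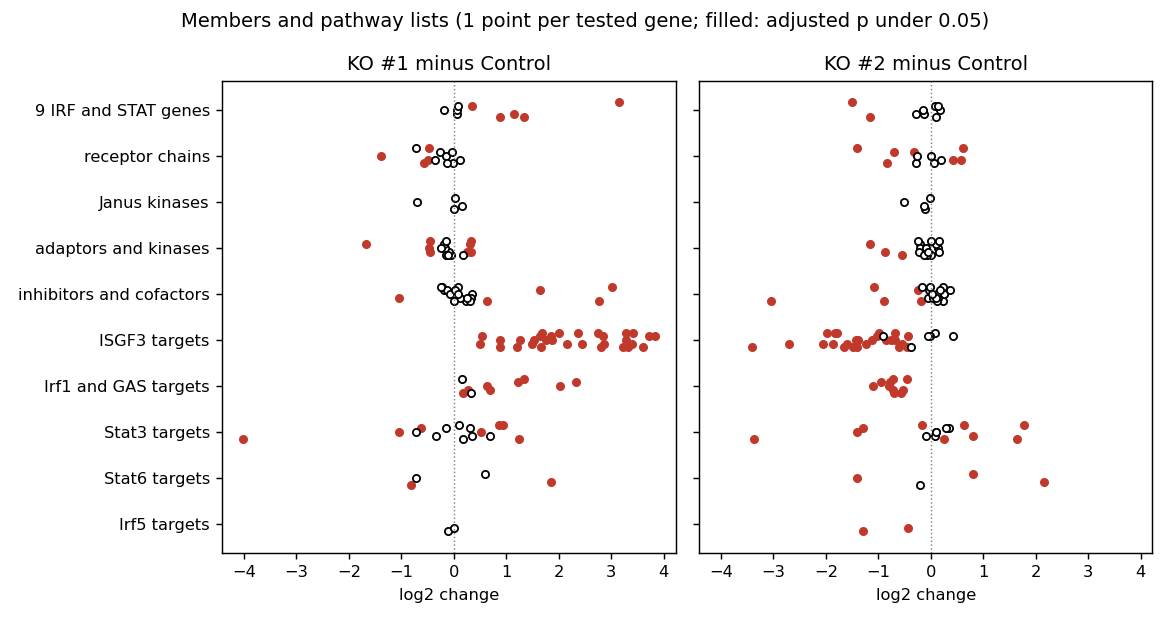
Log2 difference from Control of every tested gene of the 9 IRF and STAT genes and of 9 pathway lists, in KO #1 (left) and KO #2 (right); 1 point per gene, filled where the adjusted p was under 0.05. All 31 ISGF3 targets lie right of 0 in KO #1 and 25 are called lower in KO #2, and the 4 Janus kinases have open points in both panels.

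Reads of the ligands themselves were few. This list was chosen after the data were seen. Of 18 type I and III interferon genes in the table, 17 had 0 reads in all 9 libraries, and Ifng, the type II interferon, also had 0. A count of 0 over the 9 libraries allows up to 3 reads by counting error alone. Ifnb1, which encodes interferon-beta, had 1, 3 and 3 reads in the KO #1 libraries and 0 in each Control and KO #2 library, too few to pass the filter or to be tested. Of 8 listed ligands that activate Stat3 or Stat6, 5 had 0 reads in all libraries, namely Il4, Il13, Il6, Il10 and Csf3. Osm, a ligand that signals through Stat3, had 29 reads in Control, 27 in KO #1 and 6 in KO #2. Lif had 2, 0 and 5 reads and Il11 had 3, 3 and 0. None of the 8 passed the filter, so none was tested.

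For each member the 3 genes most like it were taken from tested genes with a mean of at least 50 normalised reads, by Pearson's r over the 9 libraries on the log2 scale. These r values rest largely on the same 3 groups, so they describe likeness of pattern only. Sdc3 (0.997), Helz2 (0.997) and Fth1 (0.995) were most like Irf7. For Irf9 they were Mndal (0.989), Epsti1 (0.987) and Ifi203 (0.985), and for Stat2 they were Ube2l6 (0.996), Igf1 (0.996) and Fth1 (0.996). Igf1 had a mean of 326 normalised reads in Control, 893 in KO #1 and 242 in KO #2, and Fth1, the ferritin heavy chain, had 8247, 11345 and 7385. The genes most like Irf1 were Pon2 (0.961), Lrrk2 and Pxk (both 0.954), and those most like Irf5 were Clip2 (0.983), Mrpl33 (0.976) and Clstn1 (0.971). For Irf2, Irf3, Stat3 and Stat6, which had no called difference, the highest r was 0.909 with Ivns1abp, 0.945 with Arfrp1, 0.929 with Eif2ak3 and 0.962 with Micall1.

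In the authors' deposited tables, the q-value was under 0.05 for 5 of the 9 genes in KO #1 and for 3 in KO #2, Irf7, Irf9 and Stat6, with q of 0.0121 for Stat6. The authors' deposited tables gave a q-value under 0.05 to 21.5% of their tested genes in KO #1 and 23.9% in KO #2. In the authors' deposited table of both clones pooled against Control, 0 of the 9 had a q-value under 0.05, beside 2.24% of its 23420 genes, with a q of 0.383 for Irf7 and of 1 for Irf9. Irf7 and Irf9 moved in opposite directions in the clones that this table pools. Irf1 and Irf5, which rose in KO #1 and were not called in KO #2, had pooled q-values of 0.576 and 0.822. The part of the direction in each clone in these q-values was not tested.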

How the data were processed

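RNA from 9 libraries was sequenced on an Illumina MiSeq after DNase treatment and stranded mRNA library preparation, per the labels. Tools in the submitters' processing notes are featureCounts 1.4.6, TopHat2 2.0.22, edgeR 3.20.1 and Cufflinks 2.1.1, and the build is mm10, without stated roles. The authors deposited a normalised signal for all libraries, TMM by its name, and its values were whole multiples of 1 step per library within 1e-06 (100% of values), from which reads were recovered. The authors also deposited FPKM values per pair of groups, with p-values and q-values. In those tables a further 12 per-sample columns matched no single sample and were not used.

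The test was limma 3.58.1 (limma-trend, R 4.3.3) on log2(value + 1) with all 9 libraries in 1 fit, for genes with at least 10 normalised reads in at least 3 libraries, and Benjamini-Hochberg adjustment over all tested genes. The plan set this test for normalised values. The script was tested on simulated data. Alternatives were DESeq2 1.42.0, edgeR 4.0.16 and limma-voom on recovered reads, other scaling, filters, pseudocounts and thresholds, the deposited FPKM values, a replicate block and leaving out each library. Same-numbered libraries did not deviate together (residual correlations -0.017 to 0.028). Depth was 1821703 to 2458539 reads per library, and limits at 0 reads cover counting error only. Named were up to 4 called genes of each list with the largest change in each clone, and others by role. Some genes of these families and lists are not reported here. The members and lists were chosen with earlier results of these data known, and the ligand list after seeing these.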

Additional observations from a re-analysis of the deposited data

Results flagged for a closer look

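For 5 genes the clones differed from each other in the direct test of KO #1 against KO #2 (limma, adjusted p under 0.05). The log2 difference was 4.64 for Irf7, 2.48 for Irf9, 1.44 for Stat2, 0.77 for Irf1 and 0.27 for Irf5, each higher in all 3 KO #1 libraries. Irf7, Irf9 and Stat2 were above Control in KO #1 and below it in KO #2 in every library, but the Stat2 difference in KO #2 was not called.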

How the results depend on the processing

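The counts of called genes, 5 in KO #1, 2 in KO #2 and 5 between the clones, did not change with other scaling, filters, pseudocounts, DESeq2, limma-voom, an adjusted p under 0.01, a fit of only the compared groups or, for each clone against Control, the deposited FPKM values. edgeR's quasi-likelihood test gave 3 in KO #2 and 6 between the clones, by adding Stat6 (0.14, adjusted p = 0.04785) and Irf3 (-0.39, adjusted p = 0.0392). Leaving out 1 library gave 5 to 5, 2 to 3 and 5 to 6. Stat6 in KO #2 passed without Control replicate 3 (0.18, adjusted p = 0.03705), and Irf3 between the clones passed without KO #2 replicate 3 (-0.47, adjusted p = 0.03275). The sign of 4 uncalled differences turned when 1 library was left out. Irf1 in KO #2 ranged from -0.056 to 0.19, the lowest without KO #2 replicate 2, and Irf2 in KO #1 from -0.053 to 0.12, the lowest without Control replicate 2. Irf3 in KO #2 ranged from -0.013 to 0.29, the lowest without KO #2 replicate 1, and Stat3 in KO #1 from -0.021 to 0.13, the lowest without KO #1 replicate 2. The other 237 values without a library and 367 under other alternatives kept direction and side of the threshold. For part of these the direction was fixed. Leaving out a library of a group not compared cannot change the log2 difference. The stricter threshold, other filters, the fit of only the compared groups and the replicate block also repeat it. With the replicate block the counts stayed at 5, 2 and 5. Same-numbered libraries did not deviate together, but this cannot exclude a pairing, because the spread within a group was little above counting error. The FPKM alternative was not run between the clones, whose columns were not matched to samples. Irf7 in KO #2 rested on 35 reads in all.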
